A study of Mus musculus with 4 samples.

Results

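Of 3381 kept cells from mouse prostate tumours, 63 were type 1 or Ccr7 dendritic cells. Conventional type 1 dendritic cells carry Xcr1, the receptor for the chemokine Xcl1, and Clec9a, a receptor for exposed actin of dead cells, and are known for loading material of dead cells onto MHC class I for CD8 T cells. When a dendritic cell matures it makes Ccr7, the receptor that guides it along Ccl19 and Ccl21 towards draining lymph nodes, together with the actin bundler Fscn1. In tumours such Ccr7 cells are known to express costimulatory and inhibitory ligands side by side, and Il12b encodes the p40 chain that interleukins 12 and 23 share.

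The cells came from 4 droplet libraries of unique molecular identifiers (UMIs), 2 of genotype DKO (Nkx3.1CreERT2 with floxed alleles, Smad4 L/L among them) and 2 of genotype TKO (the same alleles plus Pygo2 L/L), and the design names the tumours nDKOLuc and nTKOLuc. All mice received tamoxifen, and the design names 10 and 17 weeks after it without tying a library to either. Nkx3.1CreERT2 acts in prostate epithelium, so the deletions are made in the tumour cells and not by design in the dendritic cells, and no label says how many animals a library holds, so the spread between libraries may be technical. The tumours were digested with enzymes, red cells were lysed, Annexin V-positive cells were removed and hashtagged cells were loaded together, so shares describe cells that survived those steps.

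Members were chosen by raw UMI sums. Each needed at least 20 UMIs of H2-Aa, H2-Ab1 and H2-Eb1 together (MHC class II), fewer than 3 of the type 2 dendritic cell genes Cd209a, Mgl2 and Clec10a, fewer than 10 of the macrophage genes C1qa, C1qb and C1qc, at most 1 of the CD3 chains Cd3d, Cd3e and Cd3g together, and at most 1 of Cd79a. In addition a cell had either at least 2 UMIs of Xcr1 and Clec9a (the type 1 branch) or at least 5 of Ccr7, Fscn1 and Cacnb3 (the Ccr7 branch). The type 1 condition alone was met by 31 cells, the Ccr7 condition alone by 24 and both by 8. Members per library, always given here as replicate 1 and then 2, were 5 and 10 of 617 and 759 kept cells for DKO and 24 and 24 of 1208 and 797 for TKO. These genes and all others measured in the same cells are given between the branches as a description, since the rule sorted the cells by them.

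The members were deeply covered, with a median of 29524 UMIs per cell (5227 to 129126) against 9061 over all kept cells. Type 2 dendritic cells, with at least 3 UMIs of Cd209a, Mgl2 and Clec10a, had library medians of 24359 to 28536. The depth was thus not particular to the members, and the rule itself sets minimum UMI sums. Every member carried at least 88.3% of its hashtag UMIs from a single tag, no barcode occurred in more than 1 library, and no pair of libraries held the same counts (their chi-square over genes was 24.2 to 67.2 times its degrees of freedom). A fit within each branch as a result of its own was planned for at least 5 cells in every library and is not given, and values in 1 branch alone appear below as alternatives chosen after seeing the data. DKO replicates 1 and 2 held 3 and 7 type 1 cells and 2 and 2 Ccr7 cells.

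The label was checked against marker lists of other classes. Mast cell markers were at 0 in 62 of 63 members, and the 9 listed T cell genes had a median of 0 and at most 21 UMIs in a cell. The type 2 dendritic cell list, with Sirpa, Irf4 and others beside the gate genes, had a median of 10 UMIs. In 6 members, however, another class's markers stood out. A type 1 cell in each of DKO replicate 2, TKO replicate 1 and TKO replicate 2 held 342, 322 and 307 UMIs of plasmacytoid dendritic cell markers, with 25, 34 and 37 UMIs of Siglech, a plasmacytoid surface lectin, and only 3, 5 and 3 UMIs of Xcr1 and Clec9a. The largest cell, a type 1 cell of DKO replicate 2 with 129126 UMIs, held 608 UMIs of epithelial markers and 216 of the plasmacytoid list but no Siglech, and made up 31.4% of all member UMIs of its library. Fibroblast markers reached 469 UMIs in a type 1 cell of TKO replicate 2 and 189 in a Ccr7 cell of TKO replicate 1. These 6 were picked by at least 50 UMIs of epithelial or fibroblast markers, or of plasmacytoid markers with Siglech. Other lists were found more widely: monocyte markers, which include Ccr2, had a median of 70 and at most 331 UMIs in type 1 cells against 1 and 64 in Ccr7 cells, with 4 of the 8 genes higher in the type 1 branch in all 4 libraries. Langerhans cell markers, a list that shares Epcam with the epithelial one, reached 61 UMIs in a cell but were at 0 in 35 of 63 members. Neutrophil markers reached 57 UMIs in a cell, with a median of 3. The part of these lists in the results was not tested. Results below are given again without these 6 cells where it matters.

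The sums behind the rule are given as a description, since the rule bounds each branch: a type 1 cell with a Ccr7 sum of 5 or more is counted under both. In the type 1 branch the sum of Xcr1 and Clec9a ran from 2 to 60 UMIs with a median of 11, and the sum of Ccr7, Fscn1 and Cacnb3 from 0 to 4 with a median of 0. In the Ccr7 branch the second sum ran from 13 to 309 with a median of 134.5, and the first from 0 to 1. Ccr7 itself had a median of 89.5 UMIs per cell there and Fscn1 27.5, and Fscn1 was found in 21 of 24 cells. Around the Ccr7 threshold the shared gate held 1 cell with a sum of 3, 2 with 4, none with 5 or 6 and 1 with 7, and 5 of the 8 cells that met both conditions had sums of 7 to 14. Around the type 1 threshold it held 5 cells with a sum of 1, 3 with 2 and 5 with 3, so this branch grades into cells with a single UMI.

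**Figure D1:**
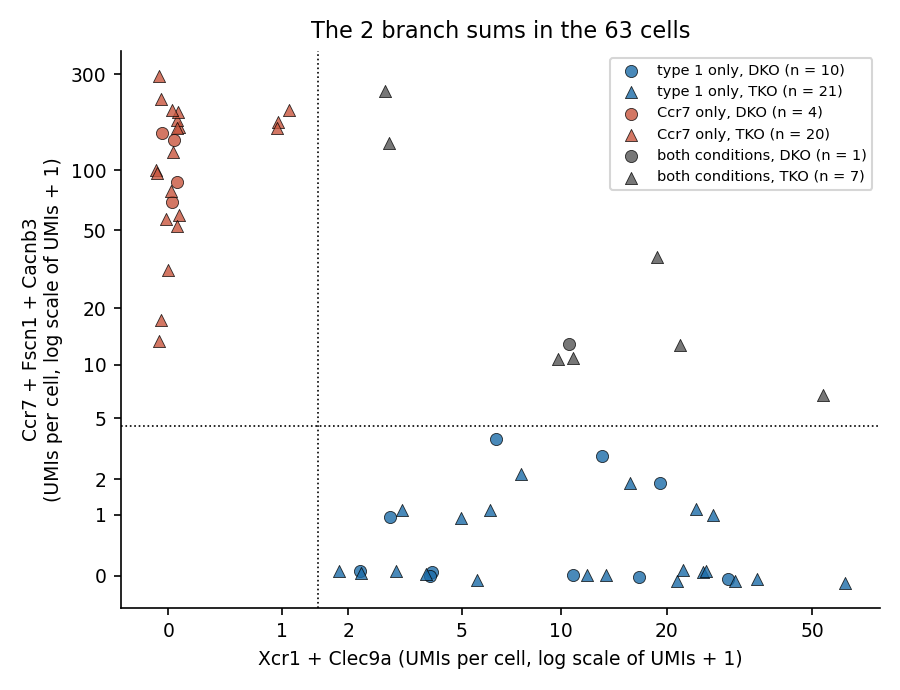
Each point is 1 of the 63 cells, with its UMIs of Xcr1 and Clec9a on the x axis and of Ccr7, Fscn1 and Cacnb3 on the y axis, both on a log scale of UMIs + 1. Colours give the branch, circles DKO and triangles TKO, dotted lines the thresholds, and points are shifted at random by a small amount to part ties. The Ccr7 cells start at 13 UMIs on the y axis, type 1 cells cannot pass 4 by the rule, and 5 of the 8 cells of both branches lie between 7 and 14.

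Type 1 identity genes followed the type 1 branch. Of 19 such genes in the files, 14 were higher in the type 1 branch in all 4 libraries and 2 in the Ccr7 branch, and 2 of the 19, Xcr1 and Clec9a, are gate genes. Over all 15147 genes with a UMI in either branch, 11.4% were higher in the type 1 branch in all 4 libraries and 6.6% in the Ccr7 branch. Naaa, a lysosomal amidase, stood at 1526, 641, 900.0 and 1074 CPM (the gene's UMIs scaled to a common total of the branch's summed UMIs) in DKO replicates 1 and 2 and TKO replicates 1 and 2 of the type 1 branch, against 0, 0, 5.69 and 6.07 CPM in the Ccr7 branch. Itgae, the integrin chain CD103, was found in 22 of 31 type 1 cells and in 0 of 24 Ccr7 cells, at 323, 161, 164 and 321 CPM in the type 1 branch.

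Both branches carried transcription factors of the type 1 lineage. Irf8 stood at 267, 458, 315 and 545 CPM in the type 1 branch and at 968, 319, 603 and 406 CPM in the Ccr7 branch, and the ranges overlapped. Batf3, the AP-1 family partner of Irf8 in type 1 development, was at 145, 40.3, 90.0 and 118 CPM in the type 1 branch and at 425, 213, 250.3 and 140 in the Ccr7 branch. Id2, a repressor needed for the lineage, was also higher in the Ccr7 branch in all 4 libraries, at 1274, 2023, 1018 and 1055 CPM against 490.0, 400, 528 and 386. Wdfy4, which cross-presentation by type 1 cells requires, went the other way, at 791, 369, 671 and 747 CPM in the type 1 branch and 0 to 21.3 CPM in the Ccr7 branch. The factors Batf3 and Id2 were thus split by branch in 1 direction and Irf8 in neither, while Wdfy4, not a transcription factor, was split in the other.

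Further genes that were highest in the type 1 branch relative to the other, each with at least 100 CPM and in all 4 libraries, were Clec12a, an inhibitory lectin, Rab7b, a small GTPase of late endosomes, P2ry14, a receptor for UDP-sugars, Eps8, Ccr2, the receptor for monocyte chemokines, Ifitm6, Plet1, Sept3, Ckb, a creatine kinase, Chsy3, Unc119, Gpr171 and St3gal5. Ccr2 and Ifitm6 had higher means in type 2 dendritic cells, 171 and 168 CPM, than in the type 1 branch, 122 and 120 CPM. Clec12a was found in 28 of 31 type 1 cells and Gpr171 in 30, against 0 and 5 of 24 Ccr7 cells. The median depth was 32203 UMIs in the type 1 branch and 26999 in the Ccr7 branch. In cells thinned to 5000 UMIs, Clec12a was found in 61.3% of type 1 cells and none of the Ccr7 cells. All 15 genes were found in a larger share of type 1 cells there. The genes were picked from these same cells, so this describes depth only and is no separate support.

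The Ccr7 branch carried the mature programme. Of 14 genes for migration and the cytoskeleton, 13 were higher there in all 4 libraries, 3 of them gate genes, and of 17 genes of the NF-kB pathway and related factors 12 were. Fabp5, a fatty acid carrier, stood at 8070.4, 7114, 2995 and 5592 CPM in the Ccr7 branch against 0, 6.20, 24.5 and 19.0 in the type 1 branch, and was found in 24 of 24 cells against 7 of 31. Ccl5, a chemokine for T cells, was at 3445, 6539, 3291 and 2766 CPM against 11.1, 6.20, 20.5 and 8.44. Il4i1, an amino acid oxidase that restrains T cells, was found in 24 of 24 Ccr7 cells and 1 of 31 type 1 cells. Type 2 dendritic cells held them too, with Fabp5, Ccl5 and Il4i1 in 58.8%, 34.5% and 31.1% of cells. Of the 48 type 2 cells that also met the Ccr7 condition, 42 had Fabp5 and 28 Il4i1, so these genes are not confined to the members. In neutrophils, a class that should lack most of these genes and has a median of 6918 UMIs a cell, 19.2% of cells had a Fabp5 UMI, 17.4% a Ccl5 UMI and 0.670% an Il4i1 UMI. In cells thinned to equal depth as above, a Fabp5 UMI was found in 6.45% of the 31 type 1 cells, 15.8% of neutrophils and 100% of Ccr7 cells. The mean level of Fabp5 was 12.4 CPM in the type 1 branch and 48.1 CPM in neutrophils. Fabp5 in type 1 cells thus lay below the neutrophil background, while the Ccr7 cells lay far above it.

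The other genes at the top of this side were Syn3, a synapsin, Mreg, Kazn, Nudt17, Eno3, an enolase, Ccl17, a ligand of Ccr4, Tnfrsf9 and Tnfrsf4, which encode the costimulatory receptors 4-1BB and OX40, Zmynd15, Adora2a, an adenosine receptor, Atxn1 and Papss2. Nudt17 was found in 16 of 24 Ccr7 cells and in none of the 31 type 1 cells. Atxn1 and Mreg were found in 46.1% and 22.5% of neutrophils too, so they are not confined to these cells. Ccl17 was found in 11 of 24 Ccr7 cells and ranged from 21.3 to 336 CPM over the libraries, so it marked some of these cells and not others. Type 2 dendritic cells had 254 CPM of Ccl17 on average, so this gene did not set the Ccr7 cells apart from them.

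**Figure D2:**
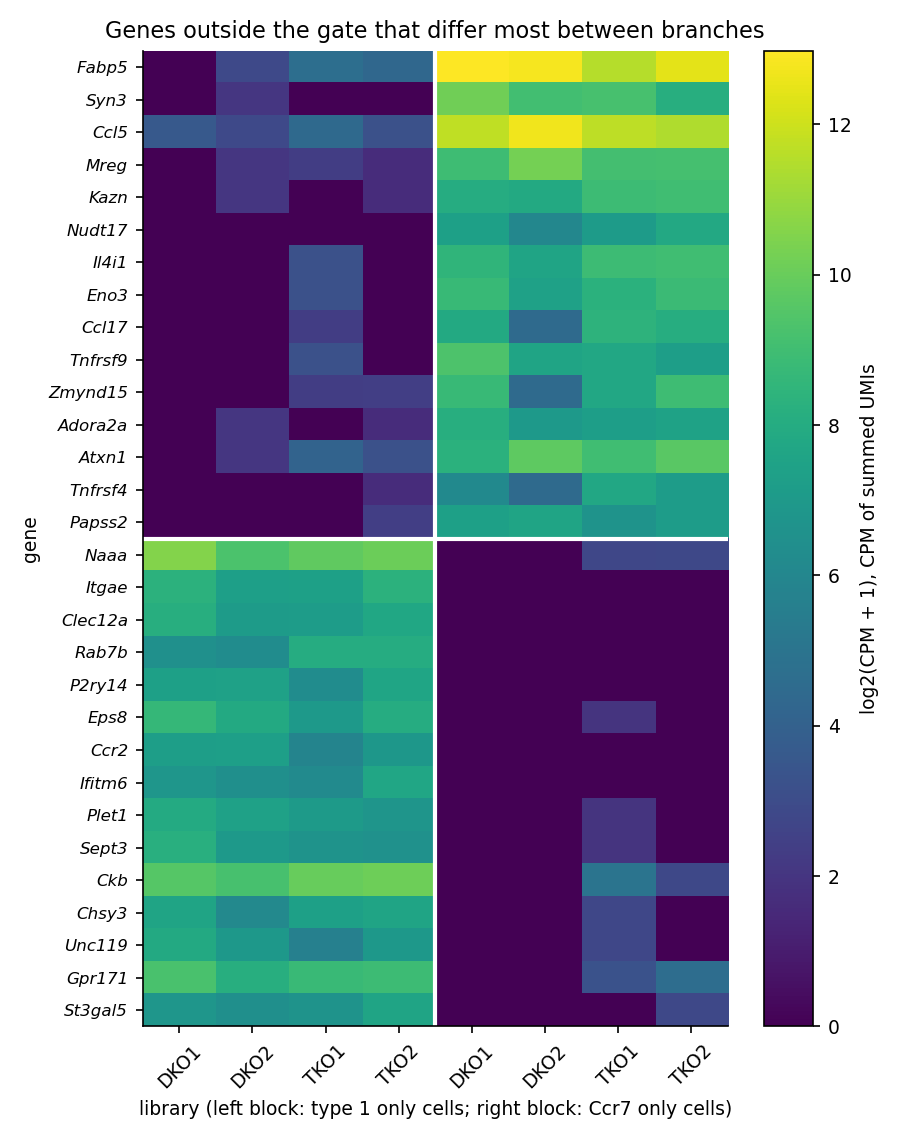
The colour gives log2(CPM + 1) of each gene in rows for each library in columns, with type 1 cells in the left block and Ccr7 cells in the right block. The upper 15 genes were chosen for higher levels in the Ccr7 branch and the lower 15 for higher levels in the type 1 branch, as in Fabp5 (2995 CPM or more against 24.5 or less).

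Of 12 costimulation genes, 5 were higher in the Ccr7 branch in all 4 libraries and none in the type 1 branch. Of 16 inhibitory genes, 5 were higher in the Ccr7 branch and 2 in the type 1 branch. Cd40, which receives help from CD4 T cells, stood at 142, 234, 191 and 206 CPM against 0, 24.8, 8.18 and 12.7. Cd200, a ligand that dampens myeloid cells, stood at 307, 660.3, 336 and 734 CPM against 0, 24.8, 8.18 and 14.8. Cd274, the ligand PD-L1, was at 401, 575, 663 and 370.0 CPM against 44.5, 149, 65.5 and 67.5. Havcr2, which encodes TIM-3, ran against this, with 245, 300.5, 331 and 219 CPM in the type 1 branch and 0 to 70.8 CPM in the Ccr7 branch. Cd83 overlapped between the branches, at 366 to 843 CPM and 566 to 1001 CPM.

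Of 13 class II pathway genes outside the gate, 8 were higher in the type 1 branch in all 4 libraries and 1, Lgmn, an endosomal protease, in the Ccr7 branch. The peptide editor H2-DMa stood at 869, 428, 524 and 635 CPM in the type 1 branch against 94.4, 42.6, 168 and 133, and the invariant chain Cd74 at 19177, 14588, 19089 and 16589 against 4318, 9457, 11349 and 10899. Of 22 class I and cross-presentation genes, 7 were higher in the Ccr7 branch and 5 in the type 1 branch. H2-K1, a classical class I heavy chain, reached 1746, 2300.3, 3060.5 and 3645 CPM in the Ccr7 branch against 646, 914, 1182 and 836, and B2m, its light chain, 3186, 3769.9, 3868 and 4870.5 against 1392, 1459, 1628 and 1366.

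The 8 cells that met both conditions were not a midpoint. On the 15 top genes of the type 1 branch their mean lay nearer the type 1 branch for all 15 on the log2 scale, and on the 15 top genes of the Ccr7 branch for 11. In 6 of the 8, Ccr7 counts were 7 to 36 UMIs with 0 UMIs of Fscn1 and Cacnb3. The other two had 128 and 203 UMIs of Ccr7, 2 and 28 of Fscn1, and only 3 UMIs each of Xcr1 and Clec9a together, with 17 and 45 UMIs of Il4i1. The same cells held 0 and 1 UMIs of Fabp5, which was found in all 24 Ccr7 cells. By the counts of Ccr7 and Il4i1, though not of Fabp5, 2 of the 8 lie beside the Ccr7 cells. By Fscn1 and Cacnb3 the other 6 lie beside the type 1 cells.

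The promoters of the genes that set the branches apart, gate genes included, were searched for letters of factors known in this lineage. RefSeq (GRCm38.p6) gave promoters for 11 of 17 type 1 genes and 11 of 18 Ccr7 genes, 16 windows for each set, and the 250 bases before each start were read on both strands. The AP-1 letters TGANTCA, bound by Batf3 among others, were in 25.0% of the type 1 windows, 4 windows of 3 genes (Clec12a, P2ry14 and Plet1), and 6.25% of the Ccr7 windows (Tnfrsf9), against 6.75% of all 32851 windows. The ETS-IRF composite, GGAA and GAAA parted by any 2 bases, bound by PU.1 with Irf8, were in 6.25% of the type 1 windows (Ifitm6), in none of the Ccr7 windows and in 2.30% of all. A narrow NF-kB spelling, GGGA and TTTCC parted by any 1 base, was in neither set and in 0.356% of all. The wider NF-kB consensus, searched after seeing these windows, was in 12.5% of the Ccr7 windows (Papss2 and Tnfrsf9), none of the type 1 windows and 7.25% of all. These are descriptions of letters in few and partly overlapping windows, not of binding. For each gene with AP-1 or ETS-IRF letters, 1 window with a match follows 5′ to 3′ on the gene's strand, to show where the letters lie. The Papss2 window is not shown. Capitals mark the AP-1 letters, for Ifitm6 the ETS-IRF letters on either strand, and for Tnfrsf9 also 2 overlapping matches of the NF-kB consensus before the AP-1 letters.
Clec12a, chr6:129349994-129350243, plus strand: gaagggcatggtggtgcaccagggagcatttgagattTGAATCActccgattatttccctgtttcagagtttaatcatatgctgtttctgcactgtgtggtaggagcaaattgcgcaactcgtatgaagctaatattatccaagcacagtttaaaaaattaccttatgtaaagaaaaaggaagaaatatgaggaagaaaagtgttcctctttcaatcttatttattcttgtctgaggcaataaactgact
P2ry14, chr3:59153493-59153742, minus strand: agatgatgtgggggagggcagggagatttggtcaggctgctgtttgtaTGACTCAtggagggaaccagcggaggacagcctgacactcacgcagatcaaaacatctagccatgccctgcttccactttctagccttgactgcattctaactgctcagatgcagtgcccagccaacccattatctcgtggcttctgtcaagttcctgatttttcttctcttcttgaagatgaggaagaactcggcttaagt
Plet1, chr9:50494275-50494524, plus strand: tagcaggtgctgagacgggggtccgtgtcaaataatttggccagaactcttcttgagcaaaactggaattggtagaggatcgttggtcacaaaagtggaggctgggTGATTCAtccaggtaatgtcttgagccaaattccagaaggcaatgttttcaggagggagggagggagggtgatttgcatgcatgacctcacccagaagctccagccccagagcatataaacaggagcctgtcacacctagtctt
Ifitm6, chr7:141016893-141017142, minus strand: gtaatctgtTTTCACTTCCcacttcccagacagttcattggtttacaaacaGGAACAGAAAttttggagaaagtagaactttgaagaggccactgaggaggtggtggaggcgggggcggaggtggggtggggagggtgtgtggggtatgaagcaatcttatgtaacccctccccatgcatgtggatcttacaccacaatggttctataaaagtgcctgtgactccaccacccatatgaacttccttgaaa
Tnfrsf9, chr4:150927749-150927998, plus strand: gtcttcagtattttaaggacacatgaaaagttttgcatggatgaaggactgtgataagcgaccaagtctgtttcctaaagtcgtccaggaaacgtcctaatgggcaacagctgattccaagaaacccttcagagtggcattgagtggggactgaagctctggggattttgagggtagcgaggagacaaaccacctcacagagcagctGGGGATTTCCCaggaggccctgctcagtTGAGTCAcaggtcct

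The first comparison between genotypes was of abundance. Members made up 0.810% and 1.32% of kept cells in DKO, against 1.99% and 3.01% in TKO, with 95% exact binomial intervals, which cover counting error only, of 0.264 to 1.88%, 0.634 to 2.41%, 1.28 to 2.94% and 1.94 to 4.45%. Both TKO libraries lay above both DKO libraries. The means were 1.06 ± 0.359% and 2.5 ± 0.725% (SD, n = 2 libraries each), a ratio of 2.35, with a two-sided exact permutation p of 0.333, the smallest that 2 against 2 libraries allow. Without the 6 cells that carry other markers the ratio was 2.46, again without overlap.

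The Ccr7 branch made up 0.324% and 0.264% of kept cells in DKO and 1.08% and 0.878% in TKO, a ratio of 3.33 without overlap (exact permutation p = 0.333). The type 1 branch made up 0.486% and 0.922% against 0.662% and 1.63%, and these overlapped (exact permutation p = 0.667). With every cell thinned to 5000 UMIs before the rule was applied, the type 1 shares were 0.357% and 0.431% against 0.453% and 1.73%, a ratio of 2.77 without overlap, and the Ccr7 ratio was 2.26 (exact permutation p = 0.333 for both). The branches were thus not shown to differ in this. Of the members, the Ccr7 branch was 40.0% and 20% in DKO and 54.2% and 29.2% in TKO, again with overlap (exact permutation p = 0.667).

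The Ccr7 result rests on the condition that removes cells with Cd209a, Mgl2 or Clec10a. Of 148 type 2 dendritic cells so removed, 48 also met the Ccr7 condition, 7 of 26 and 14 of 32 in DKO and 18 of 60 and 9 of 30 in TKO. With no such condition, a setting chosen after seeing the data, the Ccr7 branch made up 1.46% and 2.11% against 2.57% and 1.88% of kept cells, a ratio of 1.25 with overlap (exact permutation p = 0.667), and all members 2.59% and 3.82% against 4.06% and 4.64%, a ratio of 1.36. The higher share in TKO therefore held, at that smaller size, for all members and not for the Ccr7 branch.

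**Figure D3:**
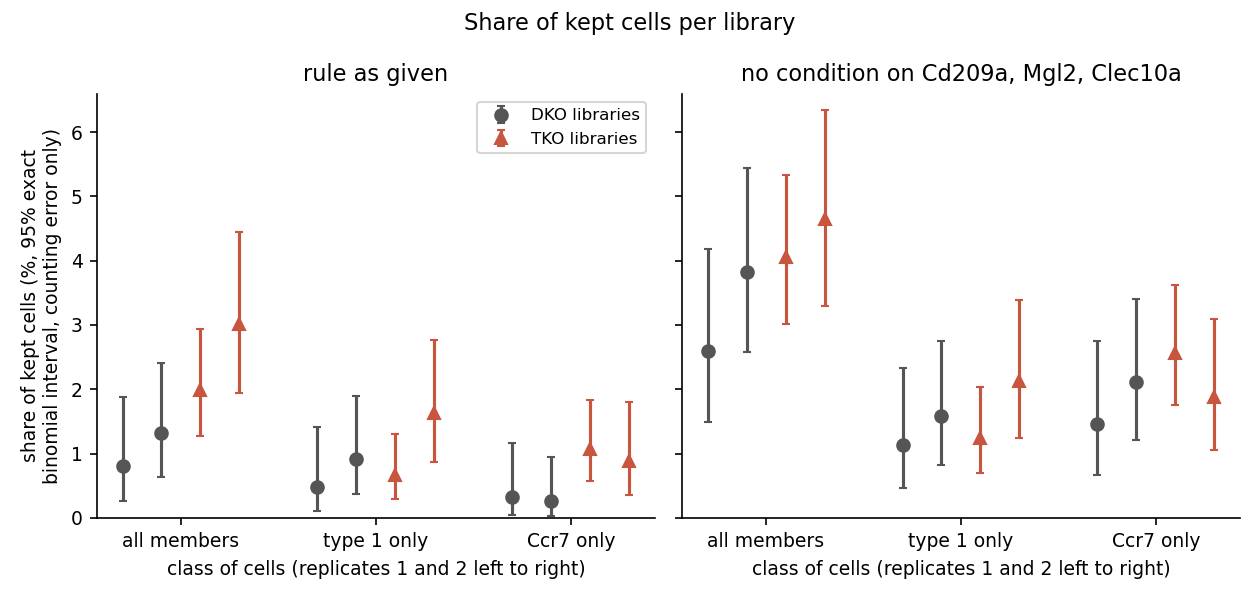
Share of kept cells in percent for all members and each branch, with DKO libraries as grey circles, TKO libraries as red triangles and 95% exact binomial intervals as bars. The left panel follows the rule and the right panel drops the condition on Cd209a, Mgl2 and Clec10a, where the Ccr7 shares of 1.46% and 2.11% overlap 2.57% and 1.88%.

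Il12b, on chromosome 11 at 44400063 to 44414033 (GRCm38, plus strand), was found in members of the TKO libraries alone. It had 0 UMIs in each DKO library and 193 and 97 UMIs in the TKO libraries, in 8 of 24 and 6 of 24 cells. None of the 15 DKO members held a UMI of it, which allows up to 20% of cells with a UMI and does not limit the share of cells that express it. A floor of 3 UMIs over the DKO members is 5.52 CPM, but it takes UMIs as independent although they cluster in cells. Only 4 of the 15 are Ccr7 cells, the branch with most Il12b UMIs in TKO. By branch, 2 type 1 cells of TKO replicate 1 held 33 UMIs, 5 and 3 Ccr7 cells of TKO replicates 1 and 2 held 153 and 74, and 1 and 3 cells of both branches held 7 and 23. A single Ccr7 cell of TKO replicate 1 gave 134 of the 290 UMIs and one of TKO replicate 2 another 70, and 4 cells held 10 or more. Neutrophils had 0 UMIs in 896 cells, and type 2 dendritic cells had UMIs in 5 of 148 cells.

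The TKO level was 35.3 times the floor of 3 UMIs over the DKO members, 8.59 times without DKO replicate 2 and 22.0 times without TKO replicate 1. As 134 of the 290 UMIs lay in 1 cell, these ratios are not lower bounds on the change. The edgeR quasi-likelihood test gave an adjusted p of 0.376 (unadjusted 0.000131). The difference of this change from that in type 2 cells had an adjusted p of 0.637. DESeq2 gave an adjusted p of 0.00249, and over all alternatives the adjusted p ran from 1.04e-15 without a filter on low counts to 0.544 without the 6 cells with other markers. Outside the gate, a cell of DKO replicate 2 with 143375 UMIs held 73 Il12b UMIs, with 8 UMIs on the Ccr7 sum, 80 on the Cd209a sum and 31 of C1q, so DKO tumours were not without the transcript.

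The genes of the rule are given as levels, without a test, and are left out of the list counts between genotypes below. Ccr7 (chr11:99144196-99155077, minus strand, GRCm38) stood at 976 and 377 CPM over all members in DKO and at 1855 and 1058 in TKO. Fscn1 stood at 446 and 185 CPM against 506 and 371, and Cacnb3, a calcium channel subunit, at 197 and 36.4 against 279 and 120. Xcr1 stood at 68.1 and 97.2 CPM against 52.4 and 149, and Clec9a at 144 and 131 against 156 and 264. The rule chose the cells by these genes, so overlap or lack of it between the genotypes is not read as a result. H2-Aa lay between 6385 and 7029 CPM in the 4 libraries.

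Across all members, 0 of 6027 genes passed the edgeR test of TKO against DKO at an adjusted p of 0.05, 312 (5.18%) had an unadjusted p under 0.05 and DESeq2 called 3 (Dcn, Il12b and Cxcl5). Of the 312, 183 (3.04%) were higher and 129 (2.14%) lower in TKO. Both TKO libraries lay above both DKO libraries for 19.4% of genes and below for 15.8%, so lack of overlap alone is common here. On simulated library sums of the same depth and fitted spread the test recovered none of the genes changed 2-fold. It recovered 39% of those changed 4-fold and 86% of those changed 16-fold. Unchanged genes called were 5 at 4-fold and 16 at 16-fold. The simulated counts were drawn per library and not per cell, so UMIs that cluster in cells were not modelled. The fits of all members also carry the branch makeup: Ccr7 cells gave 32.1% and 11.4% of member UMIs in DKO and 51.1% and 20.6% in TKO, and the part of that in each change was not tested. Below, a change is a log2 difference with its standard error, and none passed the adjusted threshold.

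Of the named genes, Dcstamp, Nrg1, Cdon and, among the chemokines below, Cxcl9 also had no UMI in any DKO member. Dcstamp, a fusion receptor of dendritic cells and osteoclasts, had 95 and 56 UMIs in the TKO libraries, in 12 cells, 18.4 times the floor (edgeR adjusted p = 0.376). Nrg1, a ligand of ERBB receptors, had 43 and 63 UMIs in 12 cells, 12.9 times the floor (edgeR adjusted p = 0.376). Cdon, a coreceptor for hedgehog ligands, had 33 and 38 UMIs in 26 cells, 8.65 times the floor (edgeR adjusted p = 0.621). Without DKO replicate 2 these ratios were 4.47, 3.14 and 2.10. None is a strict lower bound, since UMIs cluster in cells. Cdon was the most evenly spread of these genes, with 9 UMIs in its highest cell against 51 for Dcstamp and 33 for Nrg1. Ccr7 cells held 43 and 61 of the Nrg1 UMIs in TKO replicates 1 and 2, and each DKO library had only 2 such cells. Of the 12 Dcstamp cells 4 also held Il12b, and of the 12 Nrg1 cells 6 did. All 3 were found in other DKO cells: Dcstamp with 373 and 328 UMIs outside the members, Nrg1 with 806 and 1016 and Cdon with 124 and 212. Type 2 cells had changes of 0.60 for Dcstamp and -0.79 for Nrg1.

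**Figure D4:**
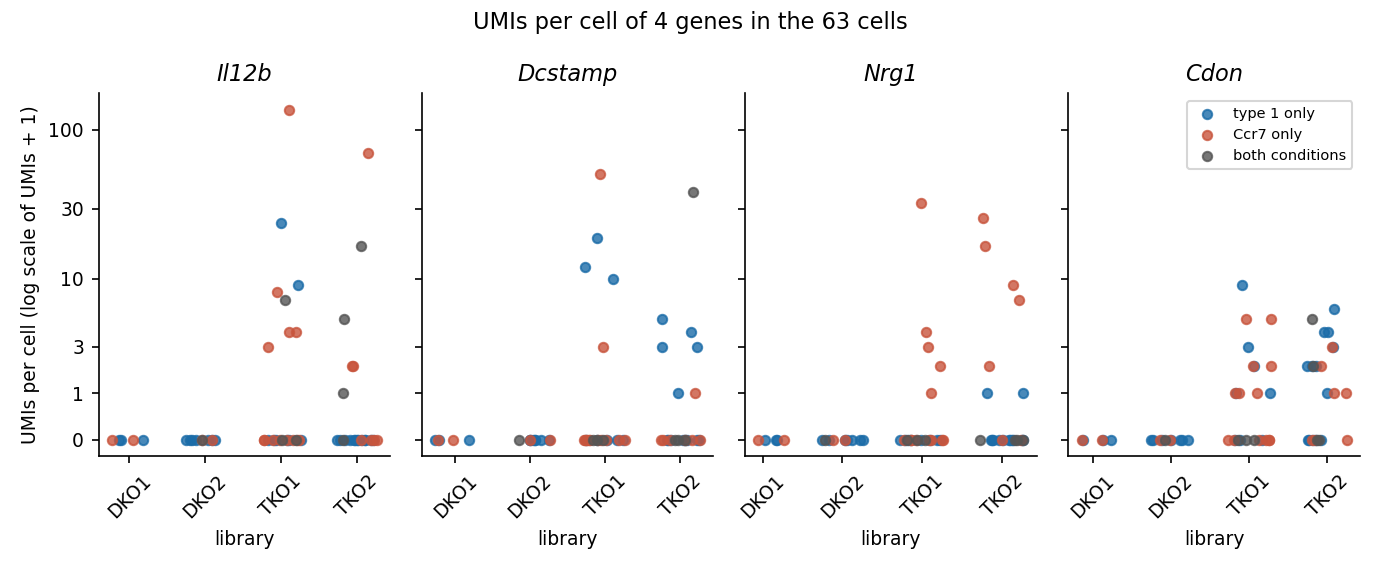
UMIs per cell of Il12b, Dcstamp, Nrg1 and Cdon on a log scale of UMIs + 1, with 1 point per member, by library in columns and branch in colour. All points of the DKO libraries lie at 0, and the highest Il12b points in the TKO libraries are Ccr7 cells with 134 and 70 UMIs.

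Dcn, a matrix proteoglycan of fibroblasts, had 1 and 15 UMIs against 205 and 401 (change 3.84 ± 0.56), but 373 came from 1 cell of TKO replicate 2, and without the 6 cells with other markers the change was 0.94. Gpr141, an orphan receptor, had 8 and 34 UMIs against 4 and 7 (change -3.31 ± 0.54), with 32 from 1 DKO cell. Ppfia4, a liprin, had 9 and 14 UMIs against 1 and 0 (change -5.70 ± 1.06) with -5.14 in type 2 cells. Ifitm2 and Ifitm1 encode interferon-induced membrane proteins. Ifitm2 stood at 1959.6 and 1441 CPM against 786 and 804 (change -1.11 ± 0.22). Ifitm1 stood at 1899 and 987 CPM against 502 and 176 (change -2.10 ± 0.50), with 213 of its UMIs in 1 DKO cell. Lack of overlap between the groups was a condition for naming both. Ifitm2 was found in 5 of 5 and 9 of 10 DKO members and its change was -0.78 and -0.85 in each branch alone. In the Ccr7 branch the groups overlapped, at 1463 and 170.4 CPM against 475 and 425. Ier3, an early response gene, had 234.5 and 464 CPM against 64.0 and 109 (change -2.07 ± 0.45), with 118 of 191 UMIs of DKO replicate 2 in the large cell with epithelial markers.

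Genes of the mature programme had mostly positive values, beside the Ccr7 shares of UMIs given above, which overlapped between the groups. Of 11 migration genes tested outside the gate 10 had a positive change, with a median of 0.56. Of 17 NF-kB genes 12 did, with a median of 0.45. Over all genes 3061 of 6027 were positive, with a median of 0.01. At an unadjusted p under 0.05, 2 of the 17 NF-kB genes were higher, Relb and Socs2, and none of the 11 migration genes was. Relb, the non-canonical NF-kB subunit, stood at 166 and 124 CPM against 432 and 275 (change 1.29 ± 0.37), and within the Ccr7 branch at 401 and 596 against 688 and 892. Socs2, a brake on cytokine signals, was at 75.7 and 85.1 CPM against 218 and 125 (1.04 ± 0.41), and at 236 and 170.4 against 418 and 600.5 in Ccr7 cells. In the Ccr7 branch the groups did not overlap for either, with 2 DKO cells per library. In the type 1 branch Relb overlapped, at 55.7 and 62.0 CPM against 123 and 27.4. Irf1 (1.16 ± 0.51), Adam8 (0.71 ± 0.36), Cd63 (0.66 ± 0.33) and Nudt17 (1.43 ± 0.78) had an unadjusted p above 0.05, and Cd63 turned to -0.38 in Ccr7 cells alone.

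Among ligands and enzymes that restrain or feed T cells, none of 7 costimulation genes and 2 of 9 inhibitory genes tested, both higher, had an unadjusted p under 0.05. Il4i1 stood at 113.5 and 21.9 CPM against 271 and 162 (1.93 ± 0.67) and Cd200 at 98.4 and 94.8 against 176 and 165 (0.80 ± 0.34). Within Ccr7 cells Cd200 overlapped between the groups, at 307 and 660.3 against 336 and 734, while Il4i1 did not, at 354 and 192 against 475 and 516. Cd274 (1.09 ± 0.55), Tnfsf4, which encodes OX40L (1.04 ± 0.61), and Cd80, a ligand of CD28 (0.70 ± 0.42), had positive values. Cd274 overlapped between the groups, at 159 and 185 CPM against 585 and 172, and its change was -0.0006 without TKO replicate 1. Ido1, the tryptophan-degrading enzyme, had 0 UMIs in all 63 members, where a floor of 3 UMIs is 1.48 CPM.

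Of 12 cytokine and receptor genes tested, Il12b was higher and Il18 lower at an unadjusted p under 0.05. Il18, a cytokine that acts with interleukin 12, had 83.2 and 63.2 CPM against 17.5 and 33.7 (-1.47 ± 0.51) without overlap, and Ifngr1, a chain of the interferon gamma receptor, was at -0.62 ± 0.37 with overlap. Of 11 chemokines Cxcl9, an interferon-induced ligand of Cxcr3, was higher, with 0 and 0 against 42 and 22 UMIs. The 42 UMIs lay in a single cell of both branches, so the ratio of 7.79 to the floor (1.89 without DKO replicate 2) rests on few cells and is not a lower bound. Ccl17 (2.13 ± 1.06) and Cxcl16 (0.85 ± 0.44) were positive, and 114 of 119 Ccl17 UMIs of TKO replicate 1 came from 1 Ccr7 cell.

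Class I genes were positive in 19 of 22, with a median of 0.26, against 3061 of 6027 over all genes. Of the 22, 3 had an unadjusted p under 0.05. H2-K1 stood at 999 and 1084 CPM against 2224 and 1672 (0.88 ± 0.22), H2-Q7, a non-classical heavy chain, at 318 and 233 against 835 and 405 (1.16 ± 0.40), and B2m at 1967 and 1667 against 2829.5 and 2326 (0.48 ± 0.19). Within the Ccr7 branch H2-K1 was 1746 and 2300.3 against 3060.5 and 3645 without overlap, and within the type 1 branch 646 and 914 against 1182 and 836 with overlap. H2-Q7 shares sequence with close family members, so its counts are uncertain. Of 12 class II pathway genes 6 were positive and 6 negative. Ifi30, the lysosomal thiol reductase that unfolds antigen, was at 840 and 671 CPM against 1763 and 1190.3 (0.95 ± 0.26), and in Ccr7 cells at 826 and 405 against 2193 and 1995. In type 1 cells it overlapped, at 846 and 660 against 1215 and 783. Cd9 (-0.61 ± 0.31) and the protease Ctss (-0.37 ± 0.24) were lower without overlap.

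Type I interferon genes were positive in 11 of 14, with a median of 0.51, against 3061 of 6027 over all genes. Irf7, their amplifying factor, had 7.57 and 51.0 CPM against 102 and 234 (2.18 ± 0.66), Oasl1 0 and 17.0 against 37.8 and 109 (2.56 ± 0.86) and Isg15, a ubiquitin-like protein, 22.7 and 139 against 345 and 264 (1.68 ± 0.58). A few cells carried these, with 72 of 187 Irf7 UMIs of TKO replicate 2 in 1 type 1 cell, and Isg15 was -1.14 in Ccr7 cells alone. Of 11 interferon gamma genes, 9 were positive with a median of 0.33, among them Gbp2 (1.43 ± 0.71), and of 7 sensors 1 was positive, Tlr3 (0.88 ± 0.67), with Myd88 at -0.86 ± 0.47 and Ifih1 at -0.47 ± 0.62.

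Identity genes had values in both directions. Of 15 type 1 identity genes tested outside the gate 9 were positive, with a median of 0.02, near the 3061 of 6027 over all genes. Ifi205, a nucleic acid sensor of the Ifi200 family, stood at 106 and 75.3 CPM against 272 and 367 (1.84 ± 0.37), in the type 1 branch at 145 and 68.2 against 470.5 and 513, with 2.80 in type 2 cells. Its near-identical relatives make the assignment of its reads uncertain. Rab7b was at 60.5 and 63.2 CPM against 113.5 and 181 (1.22 ± 0.41), with 1.57 in type 2 cells. Sept3, a septin, stood at 197 and 104.5 CPM against 39.3 and 67.4 (-1.43 ± 0.46), with 22 of 26 UMIs of DKO replicate 1 in 1 type 1 cell. Of the shared dendritic cell genes, Itgax (1.40 ± 0.59) and Cbfa2t3 (0.90 ± 0.37) were higher and Bcl11a, a factor of plasmacytoid development, lower (-1.29 ± 0.52), with 13 of 21 UMIs of DKO replicate 2 in 1 type 1 cell and -0.76 without the 6 cells, 3 of which carry plasmacytoid markers.

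Of 12 Pygo, Bcl9 and Wnt genes tested, Tcf7, a Wnt effector, was the single one with an unadjusted p under 0.05, at 0 and 7.29 CPM against 85.8 and 38.7 (3.44 ± 0.85). Its UMIs lay mainly in Ccr7 cells, at 0 and 42.6 CPM against 168 and 182 there, with 30 of 59 UMIs of TKO replicate 1 in 1 cell. Ctnnb1, which encodes beta-catenin, was at -0.83 ± 0.39, with 47 of 74 UMIs of DKO replicate 2 in 1 type 1 cell and -0.34 without the 6 cells, and Bcl9l at -1.18 ± 0.71. Pygo2 had 3 and 1 UMIs in DKO and 4 and 6 in TKO, too few for the test. Smad4 stood at 53.0 and 102 CPM against 65.5 and 74.9, and Kit at 113.5 and 155.5 against 185 and 161. A 3′ tag need not read the deleted part, so the Smad4 and Pygo2 levels do not check the deletions.

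Of 15 stress genes tested 9 were negative, and of 7 division genes tested 4 were positive. Both are near the split over all genes, with 2966 of 6027 negative and 3061 positive. Jun stood at 189 and 680.5 CPM against 122 and 146 (-1.78 ± 0.54) and Atf3 at 151 and 428 against 65.5 and 117 (-1.74 ± 0.53). The large cell of DKO replicate 2 with epithelial markers gave 261 of 280 and 162 of 176 of that library's UMIs, and without the 6 cells the changes were -0.23 and -0.20. Hsph1, a chaperone, was at 1.33 ± 0.59. Pcna (1.04 ± 0.57), Stmn1 (1.21 ± 0.86) and Tubb5 (-0.69 ± 0.64) overlapped between the groups.

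**Figure D5:**
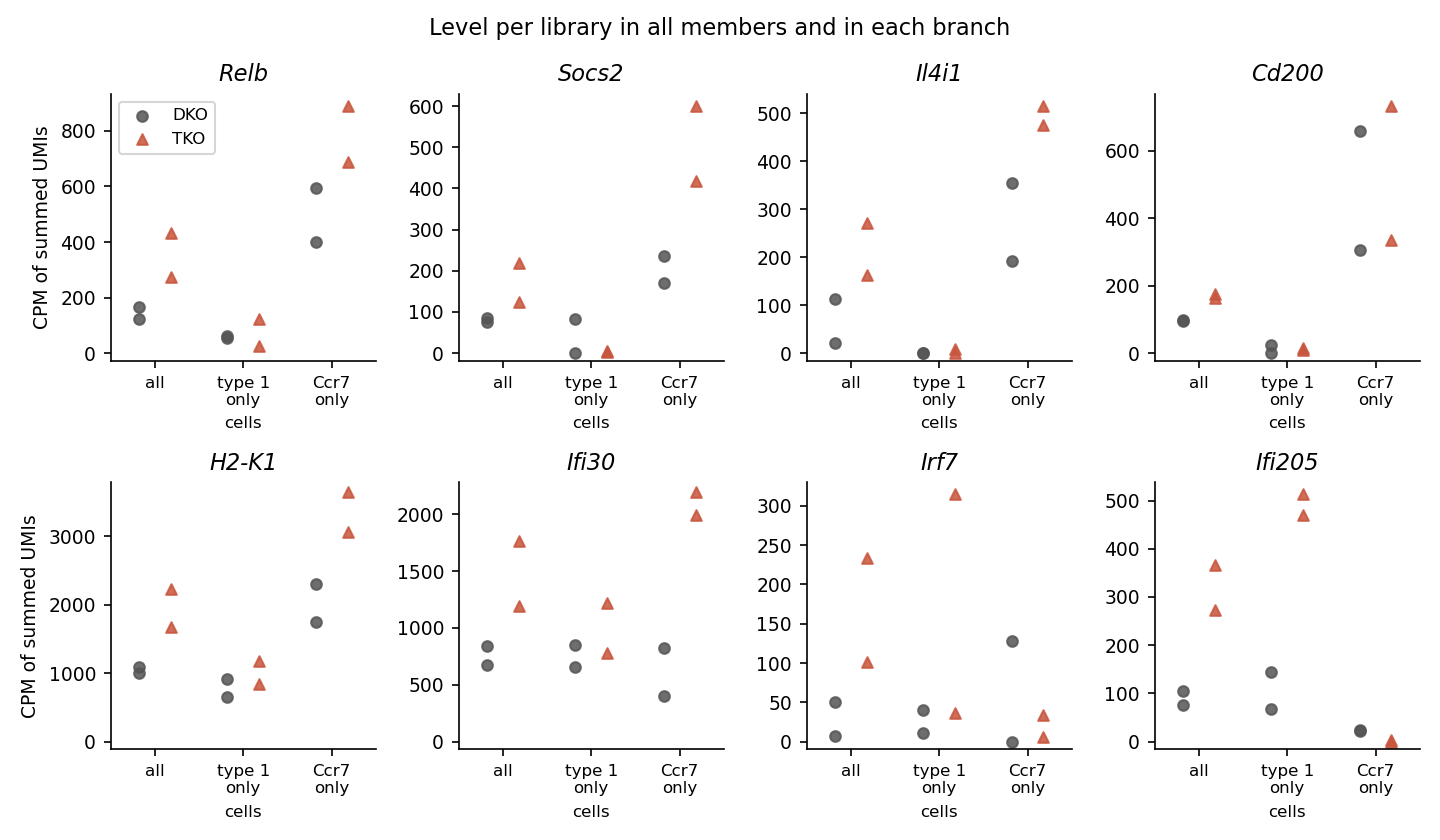
CPM of 8 genes per library in all members, type 1 cells and Ccr7 cells, with DKO libraries as grey circles and TKO libraries as red triangles. Relb, H2-K1 and Ifi30 are higher in both TKO libraries among Ccr7 cells, Ifi205 among type 1 cells, and Cd200 overlaps within the Ccr7 branch.

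No change was shown to be particular to these cells. Against the change in type 2 dendritic cells, 0 of 7949 genes differed at an adjusted p of 0.05 in the edgeR test of the genotype by class term, 466 (5.86%) had an unadjusted p under 0.05, 3.64% higher and 2.23% lower in members, and DESeq2 called 1, Dcn. In type 2 cells alone the same edgeR test called 1 of 7405 genes (0.0135%), Ifi202b, and 6.02% had an unadjusted p under 0.05, 2.92% higher and 3.11% lower. Unadjusted p-values for the difference were 0.000681 for Cd200 (changes of 0.80 in members and -2.05 in type 2 cells), 0.0017 for Il18 (-1.47 and 1.58) and 0.00191 for Il4i1 (1.93 and -0.81). The changes of Relb (1.29 and -0.00) and H2-K1 (0.88 and 0.03) had unadjusted p-values for the difference of 0.00792 and 0.00325. The adjusted p of the difference was 0.578 for Cd200, Il18, Il4i1 and H2-K1 and 0.637 for Relb.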

How the data were processed

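The authors deposited raw UMI counts for every gene and cell, per the file headers, made with Cell Ranger 7.0.0 and STAR on mm10, per the submitters' processing notes. Of 3508 cells, 3381 had 200 genes or more and no more than 20% mitochondrial UMIs and were kept, and doublets were not called. The members and gene lists were chosen with earlier results of these data known. Counts were summed per library (132170, 411482, 687408 and 800631 member UMIs in DKO replicates 1 and 2 and TKO replicates 1 and 2) and tested with edgeR 4.0.16 (TMM, filterByExpr, robust quasi-likelihood test, Benjamini-Hochberg at 0.05) in R 4.3.3, with DESeq2 1.42.0 as an alternative. Standard errors are those the change and its F statistic imply. The script was tested on simulated data. Shares were compared by exact permutation over libraries. CPM is a gene's UMIs scaled to a common total of the class's summed UMIs. Neutrophils had at least 20 UMIs of their markers and at most 2 of MHC class II. Named genes were the 5 each way with the smallest p, at least 20 CPM and no overlap, the 3 of each list with the smallest p, the 15 each way with the largest ratio between branches (pseudocount 1 CPM), and the gate and model genes, of which 1 is not reported here. Positions are from GENCODE M21. Intervals and floors of 3 counts cover counting error only, and the floors take UMIs as independent. Alternatives varied the thresholds, scaling, filter, hashtag share, depth and libraries.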

Additional observations from a re-analysis of the deposited data

How the results depend on the processing

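With a count filter, no replicate block and all libraries, edgeR called 0 genes in members under other scalings, thresholds and hashtag limits, in the cells of each branch alone and without the 6 cells with other markers, the last 3 chosen after seeing the data. It called 167 with no low-count filter, and DESeq2 called 3. Leaving out a library gave 3 to 175 calls: 175 without DKO replicate 1, led by Cxcl5, Krt19 and other epithelial genes, with DKO replicate 2, which holds the large cell, as the only DKO library, 6 without DKO replicate 2, 9 without TKO replicate 1 and 3 without TKO replicate 2, the lone library being assumed to vary like the other group. The difference from type 2 cells gave 93 calls with no filter, 1 by DESeq2 and 1 to 20 without a library (4, 1, 20 and 5 in that order). Whether replicate numbers pair the libraries could not be settled. The correlation of deviations was 0.0446 by number and -0.0446 with the numbers crossed, which with 2 libraries per group are a single value. A fit with the replicate block called 3, Dcn, Ifitm1 and Il12b. The TKO minus DKO share kept its sign for members and Ccr7 cells. For type 1 cells it was -0.042 points without TKO replicate 2 (up to 0.927 without TKO replicate 1), and for Ccr7 cells among members -2.37 on cells thinned to 5000 UMIs, -3.81 with no condition on Cd209a, and -0.83 without TKO replicate 1 (up to 24.2 without TKO replicate 2). Of the changes of named genes under the alternatives, 730 kept direction and side, 51 became called and 13 turned sign. In Ccr7 cells alone these were Cd63 -0.38, Cd80 -0.0186, Isg15 -1.14, Tubb5 0.40 and Kit -0.40, and in type 1 cells alone Cd274 -0.77. Over the fits that leave out a library, Cd274 ran from -0.0006 to 1.69, Tlr3 from -0.0009 to 1.51, Ifih1 from -1.10 to 0.22 (0.02 without TKO replicate 2), Stmn1 from -0.22 to 2.26, Tubb5 from -1.51 to 0.88 and Smad4 from -0.55 to 0.41. The cause of these shifts was not tested. With 5 and 10 DKO members, changes near 2-fold are below what the depth can show.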
